A study of Mus musculus with 2 samples.

Results

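Genes of the proteasome and of its activators were read out of poly(A) RNA sequencing of the mouse spleen. All protein-coding genes named Psma, Psmb, Psmc, Psmd or Psme with a number were taken, which gave 43 genes of the 43346 in the tables. Of these, 41 were detected in both libraries, meaning at 1 TPM (a level scaled to a fixed library total and corrected for transcript length) or more. The spleens came from C57BL/6J mice, a common inbred laboratory strain, at 8 weeks of age, with no genetic change or treatment named. The only group holds 2 biological replicates, called library 1 and library 2, made from RNA over 200 nucleotides and read from both ends at 76 nucleotides. The tissue is described as coming from littermates of both sexes, without saying which animals gave which library, so an SD here measures the spread between 2 samples and may be technical.

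The proteasome is the enzyme complex that degrades proteins tagged with ubiquitin. Its barrel is made of outer alpha rings, which form the gate, and inner beta rings, of which the beta1, beta2 and beta5 subunits carry the protease sites, and it is capped by a regulatory particle with an ATPase ring that unfolds substrates. In lymphoid tissue and in cells exposed to interferon gamma, the standard catalytic subunits Psmb6, Psmb7 and Psmb5 can be replaced during assembly by Psmb9, Psmb10 and Psmb8, giving the immunoproteasome, which is known for making peptides for MHC class I presentation.

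Library 1 held 49686344 expected counts, the estimated numbers of reads of genes, and library 2 held 51393345. For spleen, markers of B cells, T cells and macrophages were looked for, and all 5 of each list were detected in both libraries. Markers of red cells and of pancreatic acinar cells were detected as well, again all 5 of each. The summed erythroid list was 194306 TPM in library 1 and 304494 TPM in library 2, and the summed acinar list 74497 and 56983 TPM. The level of the median detected protein-coding gene was 12.2 TPM in library 1 and 10.9 TPM in library 2, and the part of these lists in that difference was not tested. Differences between libraries are given from counts scaled by TMM, a trimmed mean of log ratios. In bulk tissue, fewer cells of a type and less RNA per cell cannot be told apart.

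The inducible catalytic subunits were the most abundant role group among the 43 genes. Psmb8, which encodes the inducible beta5 subunit, ranked 1 of the 43 by mean TPM, Psmb9 (inducible beta1) ranked 3 and Psmb10 (inducible beta2) ranked 4, although in library 2 the standard gene Psmb6 (113 TPM) was above Psmb10 (110 TPM). Psmb8 (ENSMUSG00000024338, chr17:34197721-34201454, plus strand, GRCm38) had 282 TPM in library 1 and 227 TPM in library 2. Psmb9 (ENSMUSG00000096727, chr17:34181987-34187764, minus strand) stood at 174 and 125 TPM in libraries 1 and 2. Psmb10 (ENSMUSG00000031897, chr8:105935735-105938444, minus strand) stood at 167 and 110 TPM. Placed among all 11572 detected protein-coding genes by mean TPM, these were at percentiles 97.47, 95.26 and 94.80 for Psmb8, Psmb9 and Psmb10.

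Their standard counterparts lay lower and farther apart. Psmb5 (ENSMUSG00000022193, chr14:54614119-54618022, minus strand), the standard beta5 subunit, had 83.3 TPM in library 1 and 66.5 TPM in library 2. Psmb6 (ENSMUSG00000018286, chr11:70525367-70527858, plus strand), the standard beta1 subunit, stood at 139 and 113 TPM. Psmb7 (ENSMUSG00000026750, chr2:38588036-38644087, minus strand), the standard beta2 subunit, was the lowest of the 6 catalytic genes at 24.4 and 28.2 TPM. By rank of mean TPM among the 43 genes Psmb6 was 5, Psmb5 was 12 and Psmb7 was 23. The highest and lowest standard catalytic genes differed 4.79-fold in mean TPM, the inducible ones 1.84-fold.

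**Figure D1:**
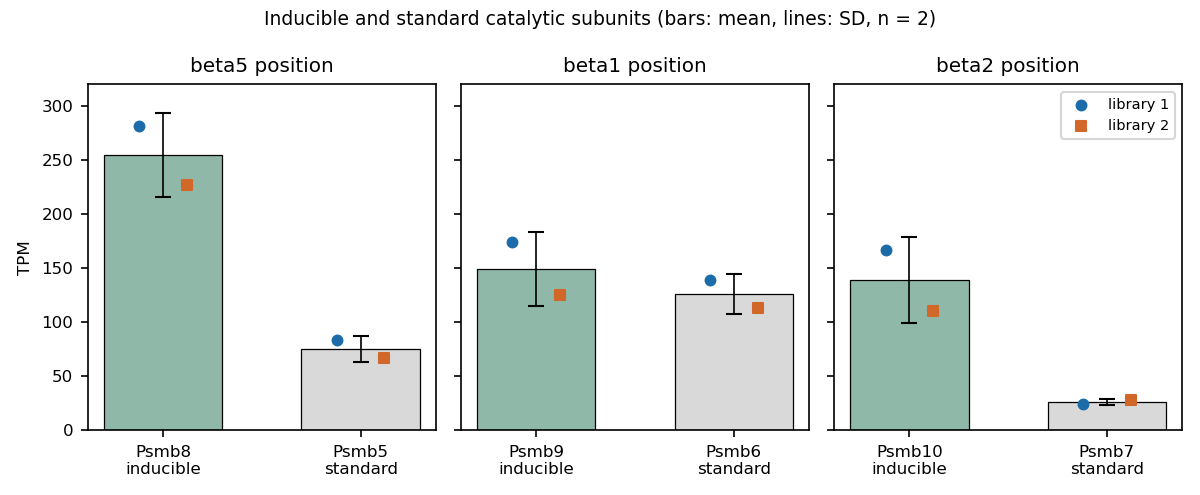
TPM of each inducible catalytic subunit (left bar of each panel) beside the standard subunit of the same position (right bar); bars are the mean and lines the SD of 2 libraries, circles library 1 and squares library 2. Psmb8 and Psmb10 exceed Psmb5 and Psmb7 in both libraries with no overlap, while the ranges of Psmb9 (125 to 174 TPM) and Psmb6 (113 to 139 TPM) overlap.

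At each position the inducible gene exceeded the standard gene within each library, by amounts that differed between positions. Psmb8 over Psmb5 was 3.39-fold in library 1 (95% counting interval 3.25 to 3.54) and 3.42-fold in library 2 (3.27 to 3.57), a mean log2 ratio of 1.77 ± 0.01 (SD, n = 2). Psmb10 over Psmb7 was 6.84-fold in library 1 (6.38 to 7.34) and 3.90-fold in library 2 (3.66 to 4.17), a mean log2 ratio of 2.37 ± 0.57. Psmb9 over Psmb6 was 1.25-fold in library 1 (1.20 to 1.30) and 1.11-fold in library 2 (1.07 to 1.15), a mean log2 ratio of 0.23 ± 0.12. In TPM the beta5 ratio was thus alike in both libraries within its counting interval, whereas the beta1 and beta2 ratios were larger in library 1 by more than theirs. In expected counts, without length correction, Psmb8 over Psmb5 was 3.98-fold in library 1 and 4.21-fold in library 2. The intervals are exact (Clopper-Pearson) and cover counting error only, and with 2 samples no exact test across samples can reach 0.05.

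Expressed as shares, Psmb8 made up 77.2% of the TPM at the beta5 position in library 1 and 77.4% in library 2. Psmb10 made up 87.2% and 79.6% at the beta2 position. Psmb9 made up 55.5% and 52.6% at the beta1 position, the closest to equal. Summed over the 3 positions, inducible genes held 623 TPM and standard genes 247 TPM in library 1, a ratio of 2.52, against 463 and 208 TPM in library 2, a ratio of 2.23. The mean log2 ratio of the sums was 1.25 ± 0.13 (SD, n = 2). Inducible catalytic genes held 26.3% of the TPM of all 43 genes in library 1 and 23.1% in library 2, and standard catalytic genes 10.4% and 10.3%.

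The size of each ratio, though not its direction, moved with transcript length or with the transcripts counted. Psmb9 was read mainly through Psmb9-204, 1351 nucleotides long, which held 84.1% of its TPM in library 1 and 83.0% in library 2, while Psmb6 was read mainly through Psmb6-201, 798 nucleotides long. In expected counts, without length correction, Psmb9 exceeded Psmb6 2.40-fold in library 1 and 2.17-fold in library 2. Psmb7 was divided between the protein-coding Psmb7-201, with 15.4 TPM in library 1 and 14.4 TPM in library 2, and the retained-intron transcript Psmb7-202, at 8.98 and 13.8 TPM. Psmb8 was read through Psmb8-203, which held 81.0% and 76.3% of its TPM, and with the leading transcript of each gene alone the mean log2 ratio of Psmb8 over Psmb5 was 1.42, against 1.77 over all transcripts. With transcripts annotated protein-coding alone, an alternative chosen after seeing the data, Psmb10 over Psmb7 was 10.8-fold in library 1 and 7.66-fold in library 2. The same restriction gave 3.20-fold and 3.17-fold for Psmb8 over Psmb5, and 1.26-fold and 1.10-fold for Psmb9 over Psmb6.

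Psmb9 and Psmb8 lie beside the peptide transporter genes Tap1 and Tap2 on chromosome 17. Exons of Psmb9 and Tap1 share 212 bases on opposite strands, and no source used here says whether the authors' counting used the strand, so reads of that stretch may belong to either gene. Of the 43 genes, 7 share exonic bases with another protein-coding gene, and besides Psmb9 and Tap1 these are Psma4 with AY074887, Psmb7 with Nek6, Psmc3 with Slc39a13, Psmd1 with Gm21972 and Htr2b, Psmd13 with Sirt3 and Psme1 with Emc9. The largest of these overlaps was that of Psmb7 with Nek6, 405 of the 3421 exonic bases of Psmb7.

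Promoter sequence bears on the catalytic pairs because interferon-driven factors and the factor NFE2L1, which raises standard subunit genes when proteasome activity falls, are each known for a short binding motif. Both strands of the 250 bases before the RefSeq start (GRCm38.p6) were searched for 2 motifs, and 36 of the 43 genes had such an entry. Psmb7 had none, so the beta2 pair could not be compared. The motif TGACNNNGC, the core of the antioxidant response element that NFE2L1 binds, was in 5 of the 36 (13.9%), beside 11.5% of 27025 genes with an entry, and these were Psmb5, Psmb6, Psmc6, Psmd12 and Psmd9. The interferon-stimulated response element core, GAAA, any 2 bases and GAAA again, was in 3 of the 36, Psmb3, Psmd4 and Psmd9 (8.33%, beside 3.46% of all genes). In Psmd9, the only gene with both motifs, the matches did not overlap. The matches in the catalytic genes are given in capitals, 5′ to 3′ on the strand of the gene, in the windows of Psmb5 (chr14:54618023-54618245, minus strand, without the 27 bases that lie in its leading transcript) and Psmb6 (chr11:70525107-70525356, plus strand).
Psmb5: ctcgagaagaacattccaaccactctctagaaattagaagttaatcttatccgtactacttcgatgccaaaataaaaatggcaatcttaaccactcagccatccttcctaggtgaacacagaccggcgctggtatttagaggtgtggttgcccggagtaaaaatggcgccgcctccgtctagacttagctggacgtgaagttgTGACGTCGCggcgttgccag
Psmb6: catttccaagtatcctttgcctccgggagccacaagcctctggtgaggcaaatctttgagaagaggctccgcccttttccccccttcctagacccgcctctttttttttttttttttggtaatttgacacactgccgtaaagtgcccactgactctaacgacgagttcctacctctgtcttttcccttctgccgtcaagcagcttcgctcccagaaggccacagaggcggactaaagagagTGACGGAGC
The matches began 47 bases before the RefSeq start in Psmb5 and 9 bases before it in Psmb6. These are letters found and not sites shown to be bound. The windows of Psmb9 and Psmd13 lie wholly within exons of their leading transcripts, so for these genes the sequence before the leading start was not searched. The RefSeq starts of Psmb9 and Tap1 are 226 bases apart and face away from each other, so that 275 of the 300 bases of their promoter entries are shared.

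The remaining beta subunits, which shape the inner rings without a protease site in the mature particle, included the most abundant standard gene. Psmb3 had 183 TPM in library 1 and 136 TPM in library 2, Psmb4 at 125 and 103 TPM, and Psmb1 at 50.4 and 41.2 TPM, while Psmb2 averaged 86.2 TPM. The group median was 109 TPM in library 1 and 91.5 TPM in library 2. In this nomenclature Psmb1 is the beta6 gene and not the beta1 gene. Psmb11, which encodes the beta5 subunit of cortical thymic epithelium, had 0 counts in both libraries, which allows up to 3 counts, or 0.0156 TPM in library 1 and 0.0142 TPM in library 2. Its neighbour on chromosome 14, Psmb5, is among the detected genes. Foxn1, the defining factor of that epithelium, also had 0 counts, and of its marker list, which includes Psmb11, 2 of 5 genes were detected, Ctsl and Ly75.

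The alpha ring genes were lower and spread over 9.22-fold in mean TPM. Psma7 was the highest with 87.2 TPM in library 1 and 79.7 TPM in library 2, and Psma3 the lowest at 8.52 and 9.58 TPM. Between them, by mean TPM, were Psma1 (36.7), Psma2 (32.2), Psma4 (20.2), Psma5 (19.6) and Psma6 (16.5), of which Psma4 and Psma5 changed places between the libraries. The group median was 20.1 TPM in library 1 and 21.2 TPM in library 2. All 7 alpha genes lay below the summed catalytic genes of every position, which averaged 330 TPM at beta5, 276 TPM at beta1 and 164 TPM at beta2. Psma8, the alpha subunit of testis germ cells, had 5 counts in library 1 and 6 in library 2, or 0.0700 and 0.0800 TPM. None of 5 testis germ cell markers was detected, and Sycp3 and Tnp1 were at 0.

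**Figure D2:**
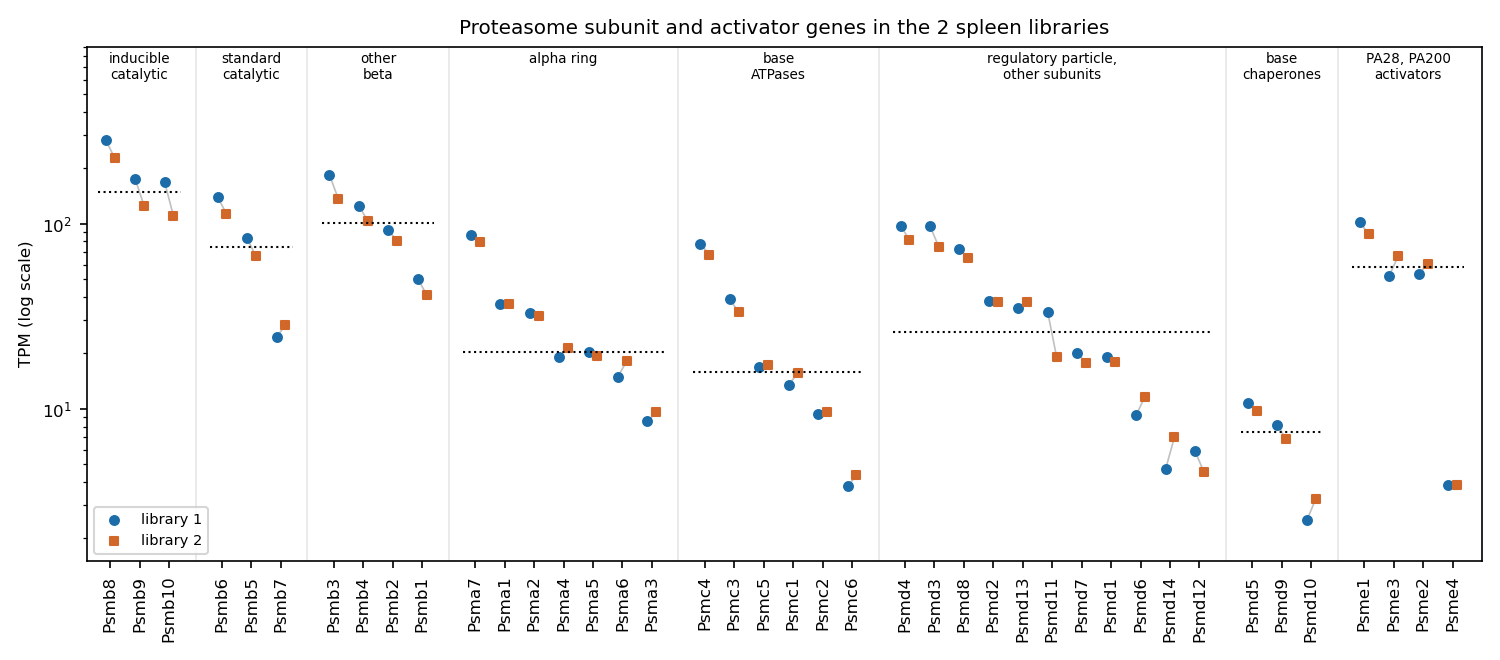
TPM of the 41 detected genes on a log axis, grouped by role and ordered by mean within a group; circles are library 1, squares library 2, and dotted lines the group median of the mean TPM. The inducible catalytic group lies highest and the base chaperones lowest, and within every group the genes spread more widely than the libraries differ.

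Genes of the regulatory particle differed widely although their products are built into 1 particle. Among the ATPases of the base, which unfold substrates, Psmc4 was the highest with 77.9 TPM in library 1 and 67.6 TPM in library 2. Psmc6 was the lowest at 3.80 and 4.36 TPM, so that Psmc4 exceeded it 20.5-fold in library 1 and 15.5-fold in library 2. Psmc3 averaged 36.0 TPM, Psmc5 16.9 TPM, Psmc1 14.5 TPM and Psmc2 9.47 TPM. The group median was 15.1 TPM in library 1 and 16.3 TPM in library 2.

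Of the 11 other regulatory particle genes taken by name, the ubiquitin receptor gene Psmd4 had the highest mean, with 97.3 TPM in library 1 and 81.7 TPM in library 2. The lid gene Psmd12 had the lowest, with 5.91 and 4.55 TPM. Psmd14, which encodes the deubiquitinase that removes ubiquitin chains from substrates, was close to it at 4.70 and 6.98 TPM, and the order of these genes at the low end was opposite in the 2 libraries. Among the rest, the lid genes Psmd3 (85.7 TPM on average), Psmd8 (68.9), Psmd13 (36.4), Psmd11 (26.0), Psmd7 (18.8) and Psmd6 (10.4) and the large base scaffolds Psmd2 (37.9) and Psmd1 (18.4) lay between these ends. The group median was 33.1 TPM in library 1 and 19.0 TPM in library 2, and in both libraries it was the level of Psmd11. That level included 12.1 TPM of the short transcript Psmd11-206 in library 1 and 0.0400 TPM of it in library 2. In protein-coding transcripts alone Psmd11 had 20.7 TPM in library 1 and 18.6 TPM in library 2. Psmd5, Psmd9 and Psmd10 carry the same prefix but encode chaperones that help to build the base, and were low. Psmd5 was the highest at 10.7 TPM in library 1 and 9.75 in library 2, Psmd10 the lowest at 2.49 and 3.24 TPM, and Psmd9 averaged 7.49 TPM. Over the 31 standard subunit genes taken by name, mean TPM ran from 4.08 for Psmc6 to 160 for Psmb3, a 39.1-fold range, with quartiles of 16.7 and 73.8 TPM.

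The activator genes held both high and low levels. Psme1 and Psme2 encode the alpha and beta subunits of PA28, an interferon-inducible cap that opens the barrel without ATP, and lie on chromosome 14 (Psme1 at 55578123 to 55581529, plus strand, and Psme2 at 55587441 to 55591113, minus strand). Psme1 had 102 TPM in library 1 and 87.3 TPM in library 2, and Psme2 stood at 53.2 and 60.6 TPM, a ratio of 1.93 and 1.44. Of the 60.6 TPM of Psme2 in library 2, 17.2 TPM rest on 1 count of the short retained-intron transcript Psme2-203. The level of Psme2 and the Psme1 over Psme2 ratio in library 2 therefore depend on that count. In protein-coding transcripts alone that ratio was 1.67 in library 1 and 1.11 in library 2. Psme3, which encodes the nuclear activator PA28 gamma, stood at 52.3 and 66.5 TPM. Psme4, which encodes the large activator PA200, was the lowest at 3.86 and 3.87 TPM. Psme2b, a near-identical copy of Psme2 outside the naming rule, had 11.4 TPM in library 1 and 7.02 TPM in library 2. The authors' posterior SD of the count, 15.9 and 10.7, was the same for Psme2 and Psme2b in each library, and how their shared reads divide is uncertain.

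Differences between the libraries were small for these genes. By an exact two-sided binomial test on scaled counts with Benjamini-Hochberg adjustment over all 17547 genes tested, at 0.05, 13 of the 42 genes tested were higher in library 1 and 14 were higher in library 2. Over all genes tested 26.6% were higher in library 1 and 24.1% in library 2, beside 31.0% and 33.3% of the 42 proteasome genes. Among the 13406 genes with 50 or more counts in each library these shares were 32.7% and 27.4%, and 14 and 14 of the 41 proteasome genes in that set passed. No proteasome gene differed by more than 2-fold, beside 7.25% of all genes. The median log2 ratio of library 1 over library 2 was 0.01 for the 42 genes and -0.00 for all tested genes. The test compares these libraries with each other, with 1 library on each side and no replicate check.

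By role group the calls fell as follows, beside 26.6% of all tested genes higher in library 1 and 24.1% in library 2. Whether the groups differ from each other was not tested. All 3 inducible catalytic genes passed as higher in library 1. Psmb10 had a log2 ratio of library 1 over library 2 of 0.46 (8495 and 6239 counts), Psmb9 of 0.30 (9591 and 7879 counts) and Psmb8 of 0.09 (10499 and 9962 counts). Of the standard catalytic genes Psmb5 (0.18) and Psmb6 (0.15) were higher in library 1 and Psmb7 (-0.22) was higher in library 2. Among the other beta genes Psmb3 (0.27), Psmb1 (0.15) and Psmb4 (0.14) were higher in library 1, and Psmb2 (0.05) did not pass. In the alpha ring no gene was higher in library 1, while Psma6 (-0.45), Psma3 (-0.25) and Psma4 (-0.25) were higher in library 2. After the ratios were centred on GC content, as set out with the GC values, Psma6 (-0.36) passed in that direction, Psma3 (-0.08) and Psma4 (-0.13) did not pass, and Psma2 (0.18) passed as higher in library 1.

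In the regulatory particle, 4 of the 6 ATPase genes were higher in library 2, beside 24.1% of all tested genes. They were Psmc1 (-0.35), Psmc6 (-0.33), Psmc2 (-0.18) and Psmc5 (-0.16). Psmc3 (0.14) was higher in library 1, beside 26.6% of all tested genes. Of the 11 other genes, Psmd14, Psmd6, Psmd13 and Psmd2 were higher in library 2 and Psmd12, Psmd3 and Psmd11 in library 1. Psmd14 had the largest difference of the 42 genes, 288 counts in library 1 and 484 in library 2, a log2 ratio of -0.73 (adjusted p = 3.30e-11, exact binomial test). Psmd10 (-0.51) and Psmd6 (-0.49) followed. Of the activators, Psme3 was higher in library 2 with 6150 counts in library 1 and 8552 in library 2 (-0.46), and Psme1 was higher in library 1 (0.09). Psme2 (-0.04) and Psme4 (-0.02) did not pass.

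The GC content of the transcripts moved with these differences and with the levels. GC content is that of the leading transcript, the transcript with most of a gene's TPM. Its median was 55.1% for the 13 genes higher in library 1 (94.9 TPM median), 47.9% for the 14 higher in library 2 (15.5 TPM median) and 49.7% for the 15 that did not pass. The median log2 ratio of detected protein-coding genes ran from -0.23 below 40% GC to 0.24 at 60% GC and above. Spearman's rho between GC content and the log2 ratio was 0.61 over the 42 genes and 0.37 over 11487 detected protein-coding genes. These genes are not independent replicates and share the same 2 libraries.

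Once the log2 ratios were centred on the running median of all genes over GC content, a correction chosen after seeing the data, 12 proteasome genes were higher in library 1, beside 24.4% of all genes, and 7 were higher in library 2, beside 21.8% of all genes. Of the 27 genes that passed before, 16 passed again in the same direction. Psmb10 (0.36), Psmb9 (0.23) and Psmd14 (-0.55) were among them, and Psmb8 (-0.03) and Psmb7 (-0.12) no longer passed. Of the 4 ATPase genes higher in library 2, only Psmc1 (-0.27) remained so. Whether GC content has a part in the differences of single genes was not tested.

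**Figure D3:**
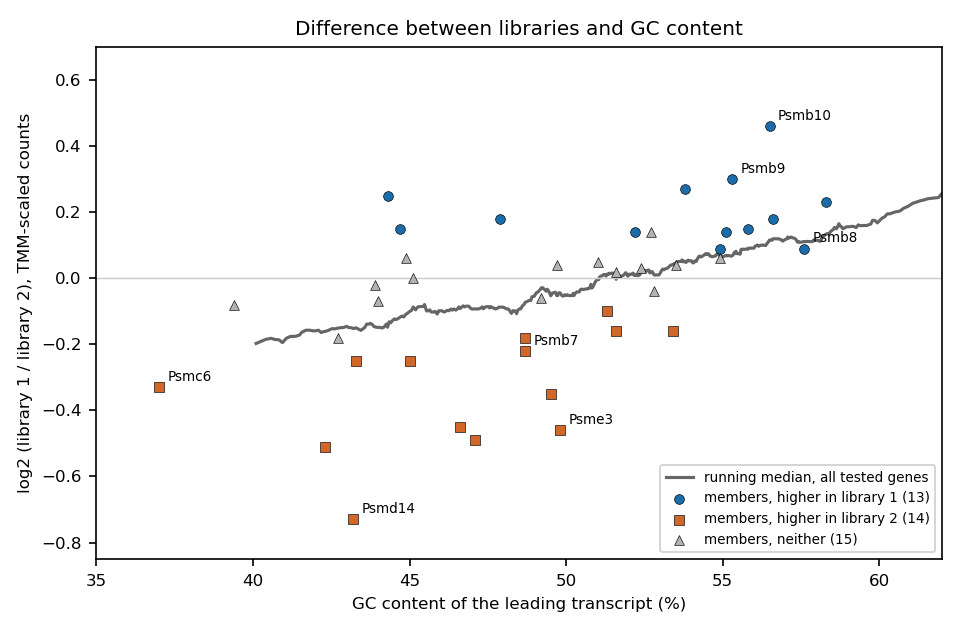
Log2 ratio of TMM-scaled counts, library 1 over library 2, against the GC content of the leading transcript in percent for the 42 tested genes, with the running median of all tested genes as a line. Genes higher in library 1 (circles) lie mostly above 50% GC and genes higher in library 2 (squares) mostly below it, along the slope of the line.

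Levels also moved with GC content. Spearman's rho between GC content and mean TPM was 0.79 over the 42 genes, 0.72 over the 31 standard subunit genes and 0.39 over 11487 detected protein-coding genes. Psmc6, the lowest standard gene, had the lowest GC content of the 42 at 37.0%, beside a median of 49.7%. Inducible catalytic genes had a median of 56.5% GC (55.3% to 57.6%) and standard catalytic genes a median of 55.8% (48.7% to 56.6%), of which Psmb7 had 48.7% and also the lowest level. The beta5 and beta1 pairs are thus close in GC content, Psmb8 at 57.6% beside Psmb5 at 56.6% and Psmb9 at 55.3% beside Psmb6 at 55.8%, while Psmb10 at 56.5% and Psmb7 at 48.7% are not. The part of GC content in the spread of levels among subunits was not tested.

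Most proteasome genes were read through a protein-coding transcript. The leading transcript was the same in both libraries for 42 of 42 genes with a transcript above 0, and it was annotated protein-coding for 40 of them. The median share of TPM in protein-coding transcripts was 94.3% in library 1 and 94.7% in library 2, beside 98.7% and 98.1% for all detected protein-coding genes. Of the 41 detected genes, 6 (14.6%) had under 80% in protein-coding transcripts in both libraries, beside 26.4% of all detected protein-coding genes. These were Psma3, Psmd1, Psme1, Psmd6, Psmb7 and Psme2. The place of Psme2 among them is uncertain. In library 2 its protein-coding share was 60.8%, while 28.3% lay in the retained-intron transcript Psme2-203, which rests on 1 count.

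The exceptions were led by Psma3 and Psmd1. In Psma3 the retained-intron transcript Psma3-203 held 68.5% of TPM in library 1 and 48.9% in library 2, and protein-coding transcripts held 6.69% and 13.0%, or 0.570 and 1.25 TPM. Its counts carried the authors' posterior SD of 18.8 in library 1 and 30.5 in library 2, for 373 and 449 counts. In Psmd1 the processed transcript Psmd1-208, 939 nucleotides long, held 53.7% and 55.7%, while the full protein-coding Psmd1-201, 3112 nucleotides long, held 22.1% and 21.1% of TPM but more counts (587 and 578, beside 358 and 388). Protein-coding transcripts of Psme1 held 48.8% in library 1 and 47.0% in library 2, with retained-intron transcripts at 36.0% and 42.1%.

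A short transcript changed the level of Psmd11 between the libraries. Psmd11-206, 581 nucleotides long and annotated for nonsense-mediated decay, stood at 12.1 TPM from 213 counts in library 1 and at 0.0400 TPM from 1 count in library 2. Without it the picture was even, with the coding Psmd11-201 at 13.9 and 11.9 TPM and Psmd11-214 at 6.76 and 6.69 TPM. The log2 ratio of Psmd11 was thus 0.80 in TPM and 0.18 in scaled counts. In Psme2 a pair of retained-intron transcripts differed in opposite directions, Psme2-205 at 19.8 TPM in library 1 and 2.58 in library 2 and the 185-nucleotide Psme2-203 at 0 and 17.2 TPM. The 17.2 TPM of Psme2-203 in library 2 rest on 1 count. The share of all retained-intron transcripts was 43.8% in library 1 and 39.2% in library 2, where Psme2-203 alone made up 28.3%.

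**Figure D4:**
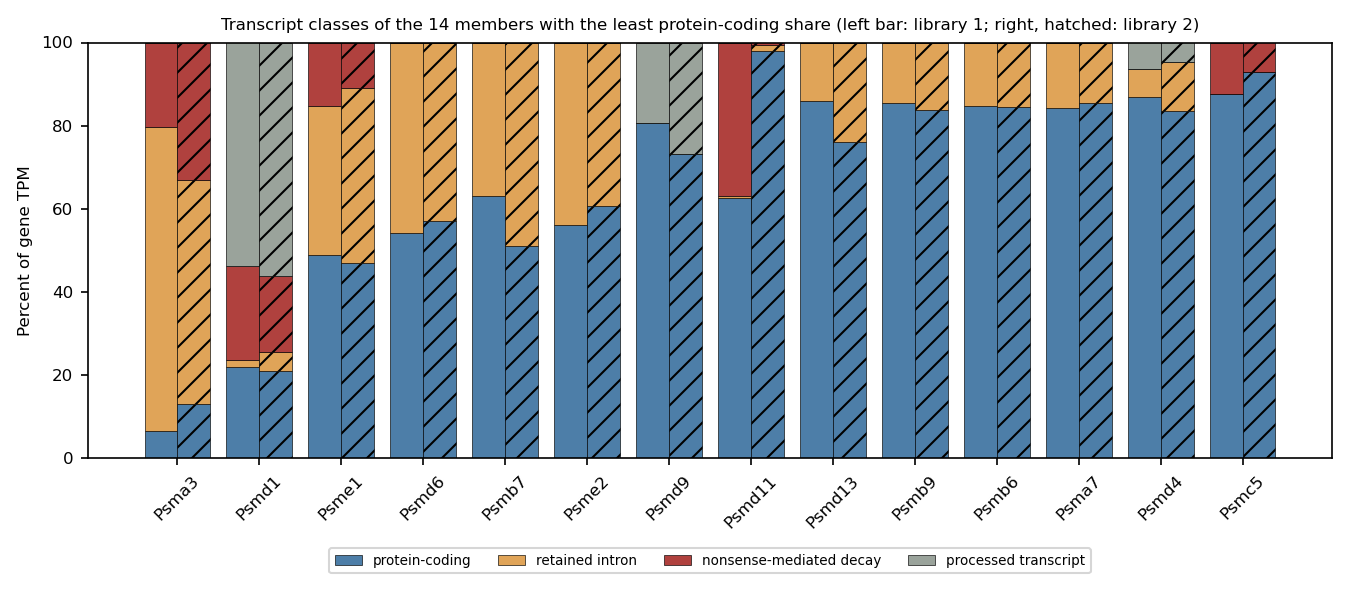
Percent of gene TPM by annotated transcript class for the 14 genes with the least in protein-coding transcripts, with library 1 as the left bar and library 2 as the right, hatched bar of each gene. Psma3 and Psmd1 have the least protein-coding share in both libraries, and Psmd11 is the gene whose bars differ most, 62.5% in library 1 and 97.9% in library 2.

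The listed genes that assemble, belong to or serve the proteasome outside the naming rule were all detected. Their calls stand beside 26.6% of all tested genes higher in library 1 and 24.1% higher in library 2. Of 8 assembly and maturation genes 5 were higher in library 1 and 1, Psmg1, in library 2, with Psmg4, a chaperone of the alpha ring, the highest at 186 and 93.5 TPM and Psmg2, another, the lowest at 8.57 and 6.16 TPM in libraries 1 and 2. Pomp, the factor that drives barrel maturation, stood at 25.6 and 23.8 TPM. Of 12 bound regulators and shuttle factors 7 were higher in library 1 and 3 in library 2, with the ubiquitin shuttle gene Rad23b the highest at 218 and 107 TPM and the deubiquitinase gene Uchl5 the lowest at 2.44 and 4.51 TPM. Of 4 genes of the pathway that adjusts subunit transcription, 2, Ddi2 and Nfe2l2, were higher in library 1 and none in library 2. Nfe2l1 was the highest of these at 74.0 and 59.3 TPM and did not pass (log2 ratio -0.03), and Ngly1, which processes its product, was the lowest at 4.51 and 4.36 TPM.

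Genes of interferon signalling and class I antigen processing spanned a wide range of levels. All 7 were detected, with B2m, the light chain of class I molecules, the highest with 1230 TPM in library 1 and 1164 TPM in library 2, and the peptide-trimming enzyme gene Erap1 the lowest at 5.28 and 5.45 TPM. Tap1 stood at 160 and 129 TPM and Tap2 at 100 and 75.0 TPM, and Irf1, which encodes a transcription factor of interferon targets, at 200 and 99.2 TPM. Of the 7, Irf1 (0.60), Tap2 (0.28), Tapbp (0.24), Tap1 (0.22) and Nlrc5 (0.17) were higher in library 1 in scaled counts, beside 26.6% of all tested genes, and B2m (-0.07) and Erap1 (-0.16) were higher in library 2, beside 24.1% of all tested genes. The leading transcripts of the 5 genes higher in library 1 had between 52.9% GC (Nlrc5) and 58.9% GC (Tap2), and those of B2m and Erap1 had 41.2% and 41.5%. None of the 31 genes of these 4 lists differed by more than 2-fold in scaled counts. In TPM the levels of Irf1, Rad23b, Ecpas (19.5 and 9.00) and Zfand5 (28.7 and 14.1) were more than 2-fold apart, each higher in library 1. The median log2 ratios of the lists were 0.34 for assembly (with Adrm1 and Sem1), 0.21 for regulators, 0.05 for transcription and 0.22 for class I processing, beside -0.00 for all tested genes.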

How the data were processed

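Poly(A) RNA of 2 spleen samples of 1 group was measured. The deposited expected counts (estimated reads per gene or transcript, with shared reads divided by the authors' estimation), TPM and posterior mean TPM values come 1 library to a table on mm10 with GENCODE M4, per the deposited notes. In the deposited transcript tables a percent states the share of gene TPM in each transcript. No source used here names the aligner, the quantification tool or the strand setting. Lists of contigs and splice junctions on mm9 were not used here.

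Symbols, positions and transcript types came by unversioned identifier from GENCODE M21 of the same assembly, which matched 42462 genes (98.0%) and 201 of the 203 transcripts of the 43 genes. Spike-ins and other entries that are not genes (26345, of which 26272 held 0 counts in both libraries) were left out. Levels are TPM. Library ratios use expected counts rounded to whole numbers and TMM factors (1.01 and 0.99; edgeR 4.0.16, R 4.3.3), with a prior count of 2 in log2 ratios. Genes with at least 10 counts over both libraries entered an exact two-sided binomial test, adjusted by Benjamini-Hochberg at 0.05. With 1 library on each side edgeR's quasi-likelihood test could not be fitted. The GC correction is a running median over 501 genes. Other work used Python 3.11.15, pandas 2.3.3, numpy 2.4.6 and scipy 1.17.1. The test was run on data simulated with counting error alone, which is the error it assumes. That check does not cover other variation between libraries. Promoters are from RefSeq, and entries for Psmc3, Psmb1, Psmd3, Psmb7, Psmb2, Psma8 and Psmd7 were missing.

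The 43 genes and the lists were chosen with earlier results of these data known. Every gene is named. Both libraries are given for the catalytic genes, the highest and lowest of each role or pathway list, and genes of restricted expression, and marker lists are given by counts or sums. Other values were chosen after they were seen. Alternatives covered posterior mean TPM, counts without length, the leading transcript alone, each library alone, DESeq2 1.42.0 size factors, total counts, other count filters, and centring on effective length or GC content. A gene and a motif are not reported here.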

Additional observations from a re-analysis of the deposited data

How the results depend on the processing

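The inducible genes exceeded the standard genes at every position under every setting run. In expected counts without length correction the mean log2 ratio was 2.03 for Psmb8 over Psmb5, 1.19 for Psmb9 over Psmb6 and 1.85 for the sums. With the leading transcript alone it was 1.42 for Psmb8 over Psmb5 and 3.19 for Psmb10 over Psmb7. With protein-coding transcripts alone, chosen after seeing the data, it was 1.67 for Psmb8 over Psmb5 and 3.19 for Psmb10 over Psmb7, and group medians were 5.79 TPM for the base chaperones and 39.4 TPM for the activators. With either library left out the log2 ratios ran from 1.76 to 1.77 for Psmb8 over Psmb5, 0.15 to 0.32 for Psmb9 over Psmb6, 1.97 to 2.77 for Psmb10 over Psmb7 and 1.16 to 1.34 for the sums. Posterior mean TPM moved none of these by more than 1 SD. After centring on GC content 7 genes were higher in library 2 in place of 14, beside 21.8% of all genes in place of 24.1%. Psmb8 then had a log2 ratio of -0.03 (adjusted p = 0.309, exact binomial test). By total counts, 15 genes were higher in library 1, beside 29.4% of all genes, and 11 in library 2, beside 21.2% of all genes. These shares of all genes were 26.6% and 24.1% with TMM. The cause of these moves was not tested. No paired analysis was possible because the samples form 1 group, and a ratio between the libraries cannot be had with either left out. Depth limits Psma8 and Psmb11, and 2 libraries leave every SD imprecise.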
